A study of Mus musculus with 4 samples.

Results

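The p53 target genes described here are 10 genes whose transcription the tumour suppressor p53 is known to raise: Mdm2, Ccng1, Phlda3, Sesn2, Trp53inp1, Bax, Bbc3, Pmaip1, Zmat3 and Eda2r. Each was taken from the 31054 features of the count matrices by its symbol, and all 10 were found. They were measured by droplet single-cell RNA sequencing (10x Genomics GEM-X chemistry) in kidneys of male C57BL/6 mice aged 19 months. One group received BPTES, an inhibitor of glutaminase (the enzyme that turns glutamine into glutamate), for 1 month, and the control group received the vehicle, DMSO. Each group has 2 libraries, and every library was a mixture of 20000 sorted CD45-negative cells (epithelium, endothelium and other cells that are not leukocytes) with 9000 sorted CD45-positive cells (leukocytes). The proportion of leukocytes was therefore set at the sort. The kidneys had been digested with liberase, and the mice carried no genetic change that the labels name. Nothing says which animals stand behind each library, so every p-value measures only the spread between these libraries.

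p53 is a transcription factor that is kept scarce in resting cells, because its own target Mdm2, a ubiquitin ligase, marks it for degradation. DNA damage, nutrient shortage and other stresses stabilise it, and it then switches on genes that stop the cell cycle, repair DNA, restrain growth signalling or start apoptosis. In the kidney, cells of the proximal tubule accumulate p53 after ischaemic and toxic injury.

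The 4 libraries held 17907 to 20091 barcodes and 249881074 to 297947661 UMIs (unique molecular identifiers, each counting 1 captured RNA molecule), and pairs of libraries shared 90 to 114 barcodes. After limits on UMIs, genes and mitochondrial share and removal of 3867 predicted doublets, 46738 cells remained. Of the 50 clusters, 42 were assigned to 17 classes from marker genes, so "proximal tubule" and the other names stand for cells that resemble that type. The remaining 8 clusters, with 10.7% of the cells, stayed unnamed. Tests were run in the 12 classes that had 50 cells or more from each of the 4 libraries, from 277 intercalated cells to 21709 proximal tubule cells. Raw UMIs were summed per library and class. Levels are given as CPM, a gene's UMIs per 1e6 UMIs of that sum, scaled by edgeR's TMM factors. Levels of single clusters and of small classes, and percentages of the level in another class, are unscaled. Changes are log2 fold changes of BPTES over DMSO from edgeR's quasi-likelihood test, with Benjamini-Hochberg adjustment over all genes tested in the class. Each standard error (SE) was derived from that test, as the absolute log2 fold change divided by the square root of its F statistic. A gene is said to be called, or to rise or fall, where that adjusted p was under 0.05.

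Promoter sequences are shown for 5 members: the 3 with the largest fold changes in the proximal tubule (Phlda3, Eda2r and Bbc3), Bax, whose fold change was below 0 in every class tested, and Mdm2, whose groups overlapped there. Each line holds the 250 bases before the transcription start in RefSeq (build GRCm38.p6), written 5′ to 3′ on the gene's own strand. Capitals mark a match to the p53 decamer motif, of which a p53 response element carries a pair. The Phlda3 window is chr1:135765835-135766084 on the plus strand, that of Eda2r is chrX:97377210-97377459 on the minus strand, and that of Bbc3 is chr7:16309333-16309582 on the plus strand, the first of 3 starts listed. The Bax window is chr7:45466899-45467148 on the minus strand and the Mdm2 window is chr10:117710759-117711008 on the minus strand.
Phlda3: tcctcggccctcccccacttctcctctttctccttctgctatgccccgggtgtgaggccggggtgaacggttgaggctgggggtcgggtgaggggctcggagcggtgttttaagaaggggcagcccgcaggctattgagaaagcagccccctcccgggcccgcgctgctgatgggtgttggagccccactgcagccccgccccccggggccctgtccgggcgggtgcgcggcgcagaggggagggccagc
Eda2r: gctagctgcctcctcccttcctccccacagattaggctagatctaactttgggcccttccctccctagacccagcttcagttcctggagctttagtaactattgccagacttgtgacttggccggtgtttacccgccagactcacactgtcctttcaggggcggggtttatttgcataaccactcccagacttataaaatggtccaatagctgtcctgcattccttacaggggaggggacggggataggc
Bbc3: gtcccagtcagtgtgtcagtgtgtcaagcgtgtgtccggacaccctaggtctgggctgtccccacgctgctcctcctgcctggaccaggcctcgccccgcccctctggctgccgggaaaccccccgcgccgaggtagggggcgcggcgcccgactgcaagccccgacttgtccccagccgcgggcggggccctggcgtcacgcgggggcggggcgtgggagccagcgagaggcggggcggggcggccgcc
Bax: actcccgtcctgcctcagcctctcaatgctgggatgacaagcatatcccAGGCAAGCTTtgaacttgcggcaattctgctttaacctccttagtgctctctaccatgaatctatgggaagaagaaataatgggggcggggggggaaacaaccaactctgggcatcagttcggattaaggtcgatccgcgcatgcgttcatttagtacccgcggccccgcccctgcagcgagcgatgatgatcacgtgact
Mdm2: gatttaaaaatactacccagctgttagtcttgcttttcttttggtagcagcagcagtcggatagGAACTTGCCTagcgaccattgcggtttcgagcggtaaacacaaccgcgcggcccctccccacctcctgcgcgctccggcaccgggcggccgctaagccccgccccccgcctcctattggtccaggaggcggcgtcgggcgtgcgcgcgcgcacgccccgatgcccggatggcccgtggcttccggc
The decamer in Mdm2 (GAACTTGCCT) begins 186 bases before the start and that in Bax (AGGCAAGCTT) begins 201 bases before it. Ccng1 carried one as well (GGGCAAGCCT, 185 bases before the start). No match was found in the windows of Phlda3, Sesn2, Eda2r or any of the 3 Bbc3 starts. RefSeq windows of 300 bases (250 before and 50 after the start) were at hand for 7 of the 10 members. Of all 32851 such windows, 2745 (8.36%) held at least 1 decamer. The consensus is its own reverse complement, so 1 search covers both strands. These matches are letters in a window and were not tested for binding. The Bbc3 window had the highest GC content of the 5 shown, 76.4% with 27 CpG dinucleotides, and that of Eda2r the lowest, 53.2% with 4 CpG.

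In the proximal tubule, the class with the most cells, 2 of the 10 members fell under BPTES and none rose. Phlda3 and Eda2r fell by 1.19 and 1.66 on the log2 scale. Over all 16033 genes tested in this class, 0.792% were called. A further 6 members had an unadjusted p under 0.05 without passing the adjustment, which makes 8 of 10, against 21.3% of all genes. The median log2 fold change of the 10 members was -0.43, beside -0.0048 for all genes. The 2 BPTES libraries lay wholly outside the range of the 2 DMSO libraries for 9 of the 10 members, against 58.3% of all genes. As these are class sums, fewer cells expressing a gene and less RNA per cell cannot be told apart. The choice of members took in genes that moved in opposite directions in this class and in macrophages of these libraries. The shares and the median of the members are therefore descriptions and not independent support.

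Phlda3 encodes a pleckstrin homology domain protein that keeps the kinase Akt from the membrane, and it lies at chr1:135766119-135769136 in GRCm38. Its proximal tubule level was 3.44 and 2.43 CPM under BPTES (429 and 229 UMIs) and 6.29 and 7.17 CPM under DMSO (756 and 758 UMIs). Both BPTES libraries were below both DMSO libraries, and the level was 2.28-fold lower (log2 -1.19, SE 0.18, adjusted p = 0.034 by edgeR). A Phlda3 UMI was present in 4.55% and 2.85% of the proximal tubule cells under BPTES and in 7.28% and 8.70% under DMSO, at median depths from 15023 to 17905 UMIs per cell. In B cells, which had the lowest Phlda3 level, the same share was 0%, 0%, 1.62% and 1.11% in the same order, at median depths from 9303 to 13620. With each cell thinned to 2000 UMIs the proximal tubule shares were 0.438% and 0.268% against 1.19% and 1.10%, with BPTES again below DMSO. Thinning left out 239, 219, 347 and 232 cells under 2000 UMIs, so these shares are over fewer cells. Without the second BPTES library the Phlda3 fold change was -0.97 and its adjusted p 0.145 by edgeR.

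Eda2r encodes a receptor of the tumour necrosis factor receptor family that binds ectodysplasin A2 (chrX:97333840-97377216 in GRCm38). It was sparse in the proximal tubule, with 0.505 and 0.382 CPM under BPTES (63 and 36 UMIs) and 1.49 and 1.34 CPM under DMSO (179 and 142 UMIs). The groups did not overlap, and Eda2r was 3.17-fold lower under BPTES (log2 -1.66, SE 0.23, adjusted p = 0.027 by edgeR). Leaving out the second BPTES library gave -1.48 with an adjusted p of 0.171 by edgeR, and keeping predicted doublets gave -1.64 with one of 0.052, and neither passed the threshold. Endothelium was the only other class where Eda2r had enough UMIs to be tested. There it stood at 2.72 and 3.89 CPM under BPTES against 4.55 and 3.94 CPM under DMSO, and the decrease was not called (adjusted p = 0.67 by edgeR).

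Bbc3, which encodes the BH3-only protein Puma, a trigger of mitochondrial apoptosis, lies at chr7:16308393-16318205 in GRCm38. In the proximal tubule it stood at 0.978 and 0.626 CPM under BPTES (122 and 59 UMIs) and at 2.34 and 1.92 CPM under DMSO (281 and 203 UMIs). All 4 values are low, both BPTES values were below both DMSO values, and the log2 fold change was -1.40 (SE 0.25). The edgeR adjusted p was 0.056, so this decrease missed the threshold. It passed with DESeq2 (adjusted p = 0.00049), which called 5.96% of all genes in this class. The log2 fold change was -1.76 without the first BPTES library and -1.12 without the second. The choice of members took in opposite movement in this class and macrophages, so no p-value here is independent support for the decrease.

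The other 2 members with roles in apoptosis differed in sign. Bax, the pore-forming effector of the mitochondrial pathway (chr7:45461697-45466898 in GRCm38), stood at 56.4 and 52.2 CPM under BPTES and 69.4 and 73.0 CPM under DMSO in the proximal tubule. The Bax groups did not overlap, and its log2 fold change of -0.39 (SE 0.087) had an adjusted p of 0.082 by edgeR. Exons of Bax overlap those of Gm45808 on the same strand, and how reads there were counted is not given. Pmaip1, which encodes the BH3-only protein Noxa, was the 1 member with a fold change above 0 in the proximal tubule. It stood at 15.9 and 24.6 CPM under BPTES against 12.2 and 12.8 CPM under DMSO. The BPTES libraries were both higher but far apart, and the log2 fold change of 0.69 (SE 0.20) was not called (adjusted p = 0.143 by edgeR).

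Sesn2, a leucine-sensing inhibitor of the growth kinase complex mTORC1 (chr4:132492032-132510501 in GRCm38), stood at 20.8 and 18.1 CPM under BPTES and 26.0 and 27.8 CPM under DMSO in the proximal tubule. Its groups did not overlap, and the log2 fold change of -0.47 (SE 0.10) had an adjusted p of 0.077 by edgeR. Trp53inp1, an adaptor of the autophagy and stress response (chr4:11156431-11174379 in GRCm38), had 28.8 and 29.5 CPM against 30.7 and 30.8 CPM. That is a narrow gap, with a log2 fold change of -0.077 (SE 0.081) and no call (adjusted p = 0.59 by edgeR).

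The feedback members were Ccng1 and Mdm2, and neither was called. Ccng1 encodes cyclin G1, which recruits a phosphatase to Mdm2 (chr11:40748552-40755311 in GRCm38). It stood at 118 and 90.1 CPM under BPTES and 139 and 148 CPM under DMSO, with no overlap, a log2 fold change of -0.46 (SE 0.13) and an adjusted p of 0.122 by edgeR. Mdm2 (chr10:117688875-117710758 in GRCm38) stood at 37.0 and 40.8 CPM under BPTES and 38.4 and 40.8 CPM under DMSO. The Mdm2 groups overlapped, and its log2 fold change was -0.026 (SE 0.089, adjusted p = 0.88 by edgeR). Zmat3, an RNA-binding zinc finger protein that acts on splicing (chr3:32334792-32366014 in GRCm38), had 11.88 and 11.98 CPM against 13.7 and 14.1 CPM. Its libraries agreed closely within each group, and the log2 fold change of -0.22 (SE 0.087) was not called (adjusted p = 0.20 by edgeR).

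The number of members called in the proximal tubule depended on the libraries and the tool, and so did the share of all genes called. DESeq2 on the same sums called 7 members (Ccng1, Phlda3, Sesn2, Bax, Bbc3, Pmaip1 and Eda2r). It called 5.96% of all genes, against 0.792% by edgeR. The number called also changed with each library left out, a setting that keeps 1 library in a group. The calls of Phlda3 and Eda2r were lost without the second BPTES library.

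**Figure D1:**
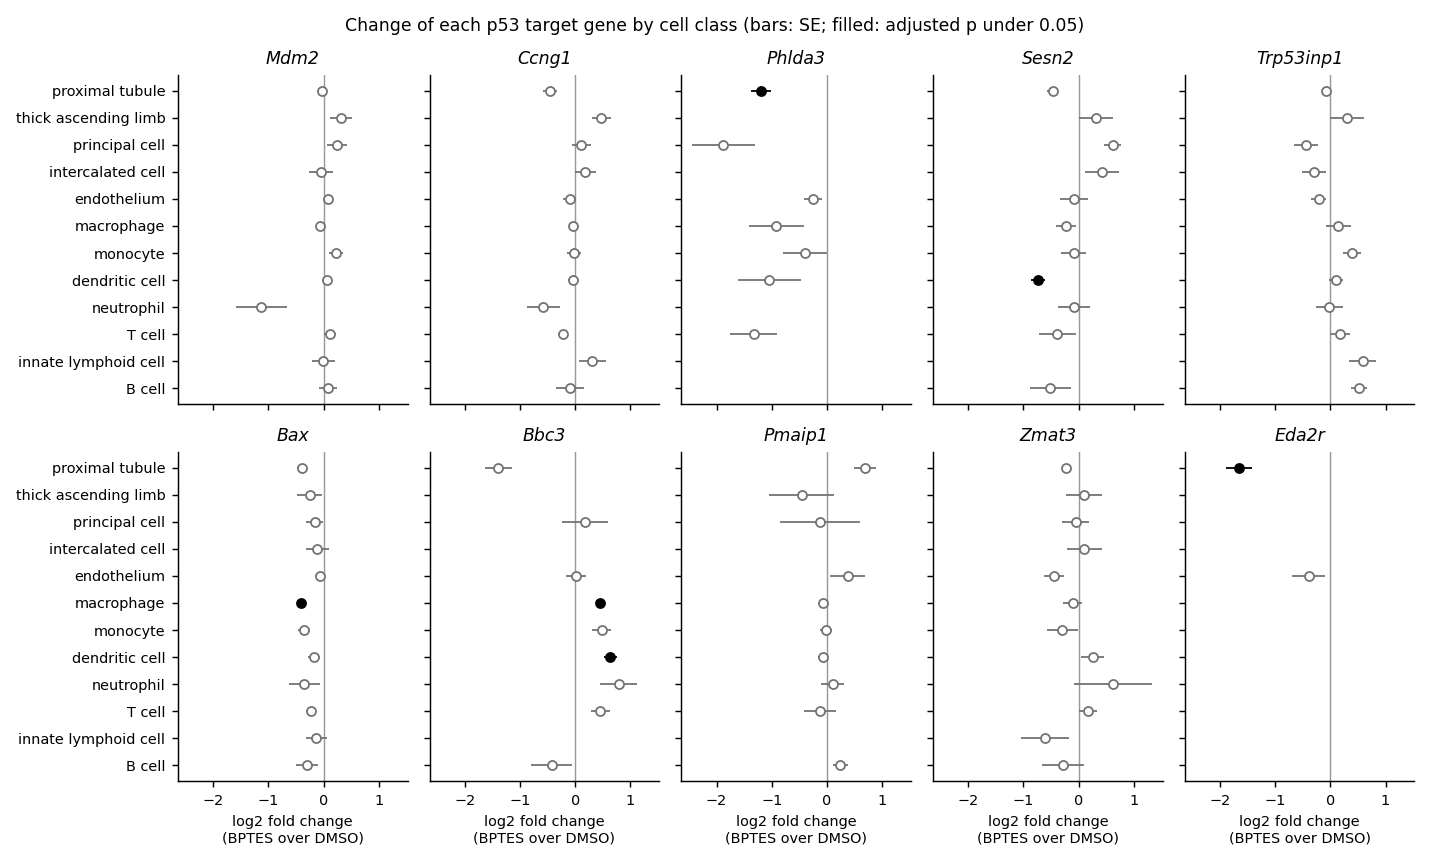
Log2 fold change of BPTES over DMSO (x axis) of each p53 target gene in each tested cell class (y axis), with bars of 1 SE and filled points where the edgeR adjusted p was under 0.05. Filled points are Phlda3 and Eda2r in the proximal tubule, Bax and Bbc3 in macrophages, and Sesn2 and Bbc3 in dendritic cells; Bbc3 is left of 0 in the proximal tubule and right of it in macrophages, monocytes, dendritic cells, neutrophils and T cells.

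The proximal tubule class was made of 10 clusters, and the members were spread unevenly over them. The cells were also divided differently between the groups. Cluster 0 held 31.9% and 40.7% of the class under BPTES and 23.5% and 26.7% under DMSO, while cluster 1 held 10.5% and 10.5% against 16.6% and 19.7%. Cluster 0 was poor in Phlda3 (0.319 CPM under BPTES and 0.827 under DMSO) and cluster 1 rich in it. The part of this division in the class sums was not tested beyond leaving out each cluster. Phlda3 had its highest pooled levels in cluster 31, which was led by Fgg, Fgb, Havcr1 and Sox9, in cluster 8, led by Cyp2a4 and Hpd, and in cluster 1, led by Acy3 and Cndp2. In cluster 1 it stood at 15.5 CPM under DMSO and 7.14 CPM under BPTES, in cluster 8 at 20.1 and 13.5 CPM, and in cluster 31 at 20.1 and 9.65 CPM. Clusters 7 and 9 held almost none of it, from 0.0823 to 0.331 CPM. Phlda3 was lower under BPTES in 9 of the 10 clusters, all but cluster 7. These values pool both libraries of a group and have no replicate check.

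Eda2r was concentrated in cluster 5, which held 55.8% of its proximal tubule UMIs under DMSO and 42.4% under BPTES. In that cluster it stood at 4.36 CPM under DMSO and 1.38 CPM under BPTES. Bbc3 was highest in cluster 31, at 12.9 CPM under DMSO and 4.82 CPM under BPTES (78 and 5 UMIs). That cluster held 16.1% of the proximal tubule Bbc3 UMIs under DMSO and 2.76% under BPTES, and it had 159 and 137 DMSO cells and 28 and 24 BPTES cells. Without cluster 31 the Bbc3 fold change was -1.22 (adjusted p = 0.104 by edgeR), while Phlda3 and Eda2r remained called at -1.13 and -1.67 (adjusted p = 0.049 and 0.041 by edgeR).

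Bax and Sesn2 were lower under BPTES in 10 of the 10 proximal tubule clusters, Bbc3 and Ccng1 in 9, and Eda2r in 7. Pmaip1 was higher under BPTES in 7 clusters, with 14.7 against 8.66 CPM in cluster 0 and 33.0 against 19.9 CPM in cluster 4. Mdm2 was higher in 7 clusters and lower in 3. The clusters are parts of the same 4 libraries and not replicates, and such counts were not made for all genes. Some directions rest on few UMIs, as for Eda2r in clusters 6 and 9 (0 and 3 under BPTES, 2 and 6 under DMSO). Leaving out cluster 7 left no member called (Phlda3 -1.11 and Eda2r -1.58, adjusted p = 0.059 and 0.053 by edgeR), and leaving out cluster 1 ended the call of Phlda3 (-1.02, adjusted p = 0.073 by edgeR). Leaving out cluster 8 brought the number called to 6 and leaving out cluster 5 to 5. The share of all genes called was 0.269%, 4.61% and 4.64% without clusters 7, 8 and 5, beside 0.792% with every cluster.

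**Figure D2:**
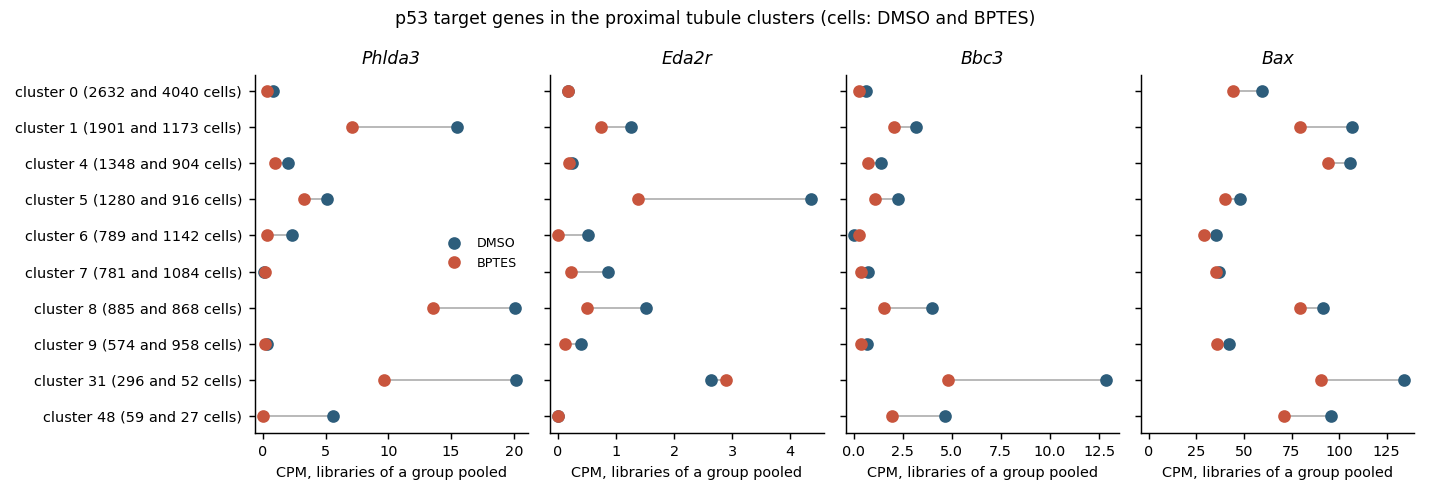
CPM (x axis) of Phlda3, Eda2r, Bbc3 and Bax in each proximal tubule cluster (y axis, with the number of DMSO and BPTES cells), libraries of a group pooled, blue for DMSO and red for BPTES. Bax is further left under BPTES in all 10 clusters, the Phlda3 groups lie far apart in clusters 1, 8 and 31, Eda2r in cluster 5 and Bbc3 in cluster 31.

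Clusters outside the named classes also had high levels, and they differed in direction. Cluster 41, which was led by Kcnip4 and held Havcr1 among its leading genes, had 188 DMSO cells and 16 BPTES cells and stayed unnamed because fewer than 3 markers of its best-matching type were detected. Under DMSO it had 10.6 CPM of Eda2r (93 UMIs), 32.4 CPM of Zmat3 and 15.9 CPM of Bbc3, each above the pooled level of that gene in all 10 proximal tubule clusters. Its 16 BPTES cells gave 0 Eda2r UMIs and 6 Bbc3 UMIs, too few for a comparison. Cluster 40, which was led by Dcn and Lum and had 146 DMSO and 76 BPTES cells, had higher pooled levels under BPTES for 7 of the 10 members and lower ones for Sesn2, Bax and Bbc3. Its Eda2r level was 26.9 CPM under BPTES and 11.4 CPM under DMSO (35 and 19 UMIs), its Phlda3 level 67.7 and 56.5 CPM, and its Zmat3 level 29.2 and 16.2 CPM. Cluster 38, led by Slc14a2 and Fst, had nearly the same Phlda3 level in both groups, 29.0 and 29.1 CPM. These pooled values have no replicate check.

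Other genes were read beside these results. Percentages of the level in another class use unscaled CPM, while the CPM sums beside them are scaled. Summed over 8 macrophage markers, the proximal tubule class had 209 and 275 CPM under BPTES and 206 and 218 CPM under DMSO, which is 1.62%, 2.07%, 1.35% and 0.937% of the level in macrophages. Of these 8 markers, 3 fell under BPTES in the proximal tubule and none rose. The Bbc3 level of the proximal tubule was 4.11%, 2.46%, 14.7% and 10.9% of that in macrophages in the same order. It exceeded the share of all 8 markers in both DMSO libraries and of 7 in both BPTES libraries. For Phlda3, the 7 fibroblast markers summed to 0.874 and 0.6999 CPM under BPTES and 1.27 and 4.90 CPM under DMSO in the proximal tubule, at most 0.0557% of the fibroblast level, while Phlda3 itself stood at 2.07% to 7.69% of the fibroblast level. The 9 endothelial markers summed to 6.59 to 13.2 CPM, at most 0.0882% of the endothelial level, beside 18.7% to 56.3% for Phlda3. Genes known to respond to tissue dissociation were read as well. Of 10 such genes, 2 fell in the proximal tubule (Junb and Zfp36), 7 had an unadjusted p under 0.05 with lower values, and their median log2 fold change was -0.84. Of 6 tubular injury genes 3 fell (Lcn2, Vcam1 and Clu), with a median of -2.01. The part of either list in the fall of Phlda3 and Eda2r was not tested.

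In macrophages 2 of the 9 members tested were called, in opposite directions, against 4.02% of the 14365 genes tested in that class. Bbc3 stood at 23.5 and 24.0 CPM under BPTES (443 and 348 UMIs) and 16.9 and 17.8 CPM under DMSO (432 and 500 UMIs). Both BPTES libraries were above both DMSO libraries, and Bbc3 rose 1.37-fold (log2 0.45, SE 0.087, adjusted p = 0.048 by edgeR). Bax stood at 81.1 and 78.0 CPM under BPTES and 104 and 108 CPM under DMSO. Its groups were far apart, and Bax was 1.34-fold lower under BPTES (log2 -0.42, SE 0.066, adjusted p = 0.038 by edgeR). The other 7 members tested had log2 fold changes from -0.92 (Phlda3) to 0.15 (Trp53inp1), and none was called. Mdm2 and Ccng1 were nearly level, at -0.058 and -0.043. Since opposite movement in these 2 classes entered the choice of members, the macrophage rise and the proximal tubule decrease of Bbc3 are not independent evidence of its direction.

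Both macrophage calls were lost without either BPTES library (Bbc3 0.47 and 0.44, Bax -0.44 and -0.39, adjusted p from 0.151 to 0.255 by edgeR). Without either DMSO library only Bax was called (Bbc3 0.42 and 0.49, adjusted p = 0.062 and 0.053 by edgeR). Both calls were also lost at a mitochondrial limit of 25% (Bbc3 0.45 and Bax -0.39, adjusted p = 0.068 and 0.069 by edgeR), and that of Bbc3 with DESeq2 (adjusted p = 0.061) and at clustering resolution 2 (adjusted p = 0.059 by edgeR). The largest macrophage cluster, cluster 2, had 28.0 CPM of Bbc3 under BPTES and 17.6 CPM under DMSO, with 74.5 and 106 CPM of Bax. In cluster 18 Bbc3 was 21.2 against 18.0 CPM, and in the cycling cluster 36 it was 15.6 against 14.8 CPM. Cluster 42 went the other way for both genes, with 20.2 against 21.9 CPM of Bbc3 (2 and 6 UMIs) and 161 against 139 CPM of Bax (16 and 38 UMIs). Without cluster 2 neither gene was called (Bbc3 0.22, adjusted p = 0.38, and Bax -0.31, adjusted p = 0.122, by edgeR). The macrophage class also differed in its markers: the 8 macrophage markers summed to 12769 and 12579 CPM under BPTES and to 16181 and 23532 CPM under DMSO, and the 11 proximal tubule markers to 498 and 414 CPM and to 314 and 281 CPM. The 7 natural killer cell markers summed to 69.2 and 75.4 CPM under BPTES and 40.3 and 46.0 CPM under DMSO in macrophages, with 2 called higher. Of 4 tubular injury genes tested there 1 fell, with a median of -1.11. In dendritic cells the macrophage markers summed to 2118 and 2776 CPM and to 2910 and 5903 CPM. The part of these genes in the results was not tested.

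The share of macrophages with a Bbc3 UMI was 35.4% and 31.3% under BPTES and 27.6% and 31.7% under DMSO, at median depths of 15915, 15092, 18123 and 21770 UMIs. The groups overlapped in this share. In proximal tubule cells, which had the lowest Bbc3 level of any class, the share was 1.89%, 0.955%, 3.96% and 3.46%. Thinned to 2000 UMIs, the macrophage shares were 5.53% and 4.33% under BPTES and 3.12% and 3.32% under DMSO, and no longer overlapped, over the cells that remained after 31, 25, 45 and 63 were left out.

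In dendritic cells 2 of the 9 members tested were called, against 2.52% of 12942 genes. The class joined cluster 15, led by Ccl17 and Ccl22, and cluster 27, led by Xcr1, which were divided differently between the groups. Cluster 15 had 188 and 164 BPTES cells and 390 and 263 DMSO cells, and cluster 27 had 108 and 110 against 84 and 111. The part of this division in the values below was not tested. Sesn2 stood at 14.7 and 12.3 CPM under BPTES and 23.1 and 22.1 CPM under DMSO. The groups were well apart, and Sesn2 was 1.67-fold lower under BPTES (log2 -0.74, SE 0.13, adjusted p = 0.036 by edgeR). Bbc3 stood at 19.3 and 20.1 CPM under BPTES and 11.8 and 13.5 CPM under DMSO, a non-overlapping rise of 1.56-fold (log2 0.64, SE 0.12, adjusted p = 0.049 by edgeR). Neither call held without the first BPTES library (Sesn2 -0.88, Bbc3 0.67) or without the second (-0.61 and 0.61), and the call of Bbc3 was also lost without the first DMSO library (0.55, adjusted p = 0.081 by edgeR), with DESeq2 (0.64, adjusted p = 0.075) and at a mitochondrial limit of 25% (0.54, adjusted p = 0.054 by edgeR). The remaining 7 members tested in dendritic cells were not called, and Pmaip1, Mdm2 and Ccng1 overlapped between the groups. Markers of other types moved in this class as well. Called lower were 1 monocyte, 1 mast cell or basophil and 1 innate lymphoid cell marker, and called higher were 2 plasmacytoid dendritic cell markers. Of 4 tubular injury genes tested 1 fell, with a median of -1.32. The part of these genes in the results was not tested.

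**Figure D3:**
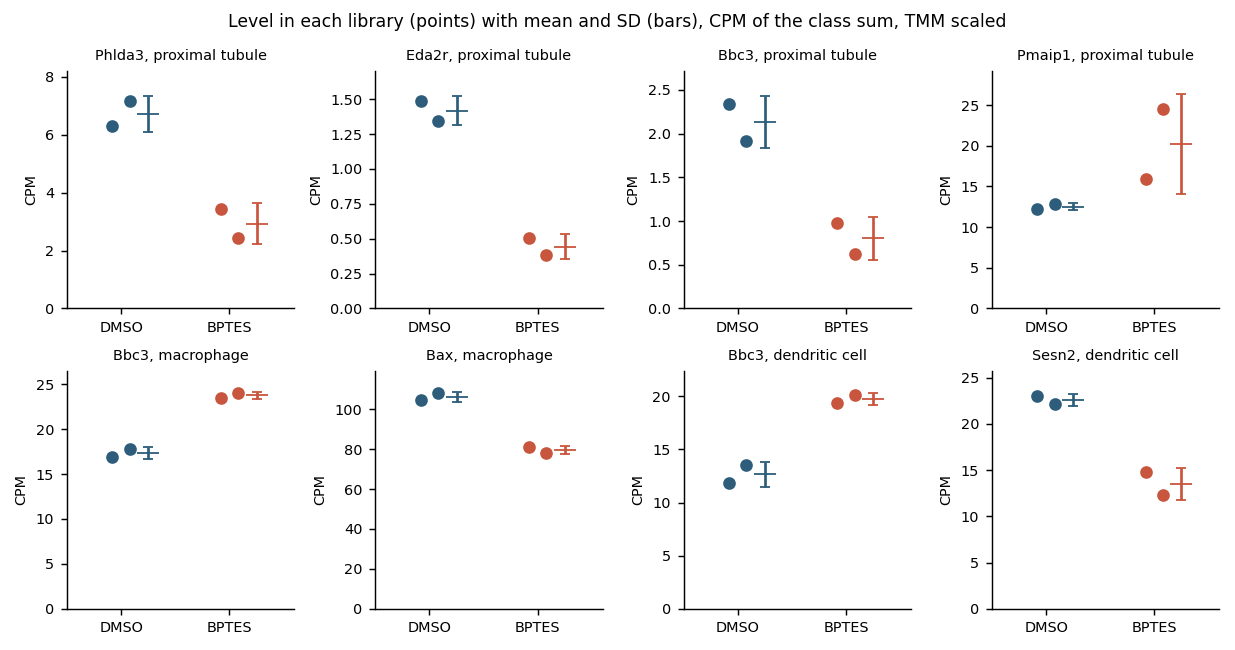
CPM (y axis, from 0) of 8 gene and class pairs in the DMSO (blue) and BPTES (red) libraries, points for libraries and bars for mean and SD of the 2 libraries of a group. Phlda3, Eda2r and Bbc3 are lower and Pmaip1 is higher under BPTES in the proximal tubule, Bbc3 is higher under BPTES in macrophages and dendritic cells, and in no panel do the groups overlap. Of all genes tested in the proximal tubule, 58.3% had no overlap.

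The effect of BPTES on Bbc3 was also set side by side between classes, in 1 edgeR fit with the library as a block. The choice of members took in genes that moved in opposite directions in the proximal tubule and macrophages of these same libraries. Every difference from the proximal tubule uses those values, so the differences of Bbc3 are given as descriptions, with no p. Its log2 fold change exceeded that in the proximal tubule by 1.81 (SE 0.24) in macrophages, by 1.97 (SE 0.29) in dendritic cells and by 1.36 (SE 0.31) in endothelium. The difference from macrophages was 2.18 without the first BPTES library, 1.53 without the second and 1.76 with predicted doublets kept. The difference from dendritic cells was 1.66 without the second BPTES library and 1.83 with doublets kept. For Phlda3 the difference from macrophages was 0.21 (SE 0.37) and for Bax -0.064 (SE 0.11), each smaller than its standard error. For Ccng1 it was 0.39 (SE 0.13) and for Pmaip1 -0.77 (SE 0.28). The difference from endothelium was 0.91 (SE 0.25) for Phlda3 and 1.22 (SE 0.43) for Eda2r. These values are descriptions as well. Of all genes, 1.58% were called for the difference from macrophages, 1.12% for that from dendritic cells and 0.586% for that from endothelium.

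No member was called by edgeR or by DESeq2 in the other 9 classes, where 13 of 71 tested pairs had an unadjusted p under 0.05, beside 7.56% to 19.4% of all genes in these classes. The share of all genes called by edgeR was 0.596% in monocytes, 0.807% in endothelium, 0.353% in innate lymphoid cells, 0.28% in the thick ascending limb, 0.247% in B cells, 0.154% in intercalated cells and 0.0632% in principal cells. In T cells and neutrophils edgeR called 0% of all genes, with 1707 and 826 genes at an unadjusted p under 0.05 and 91 and 52 called by DESeq2. The counts below are therefore descriptions. Of the 120 member and class pairs, 99 had enough UMIs to be tested and 6 were called, 2 higher and 4 lower.

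Bax had a log2 fold change below 0 in 12 of the 12 classes, from -0.42 in macrophages to -0.069 in endothelium. How many of all genes had the same sign in every class was not counted. Monocytes had 99.5 and 110 CPM of Bax under BPTES against 135 and 132 CPM under DMSO (log2 -0.35, adjusted p = 0.148 by edgeR), and T cells 75.2 and 72.1 CPM against 87.0 and 86.4 CPM (log2 -0.24, adjusted p = 0.37). Its sign turned in B cells and neutrophils without the second DMSO library (0.0057 and 0.092) and in intercalated cells without the first BPTES library (0.025).

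Phlda3 was below 0 in 7 of the 7 classes where it was tested, from -1.88 in principal cells to -0.25 in endothelium. The share of all genes with the same sign in every class tested was not counted. Principal cells had 1.98 and 1.78 CPM under BPTES against 9.38 and 5.03 CPM under DMSO (adjusted p = 0.25 by edgeR). These levels came from 6, 4, 21 and 15 UMIs. Phlda3 passed the low-count filter in principal cells only through the DMSO libraries, so the filter had a part in that value being below 0. T cells had 1.74 and 1.27 CPM against 4.74 and 2.84 CPM (log2 -1.33, adjusted p = 0.37 by edgeR). Without the second DMSO library the sign turned in monocytes (0.075). B cells, where Phlda3 was not tested, gave 0 UMIs in both BPTES libraries and 5 and 4 under DMSO; the count of 0 allows up to 0.437 CPM (3 counts over both libraries).

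Bbc3 was above 0 in 7 of 9 classes, but 2 of these signs turned: endothelium, at 0.0057, with several settings, and principal cells, at 0.18, without the first BPTES library (-0.117). Monocytes had 26.2 and 27.4 CPM under BPTES against 16.6 and 22.8 CPM under DMSO (log2 0.48, adjusted p = 0.199 by edgeR). T cells had 14.99 and 15.5 CPM against 9.97 and 12.3 CPM (log2 0.46, adjusted p = 0.38 by edgeR). Neutrophils had 14.2 and 12.7 CPM against 8.90 and 6.86 CPM (log2 0.79, adjusted p = 0.58 by edgeR). In each of these 3 leukocyte classes both BPTES libraries were above both DMSO libraries. The share of all genes without overlap was not counted in these classes, and in the proximal tubule it was 58.3%. B cells differed in sign, with 6.38 and 4.85 CPM against 7.02 and 8.19 CPM (log2 -0.43, adjusted p = 0.61 by edgeR), a sign that turned with predicted doublets kept (0.29). Macrophage markers, of a class rich in Bbc3, moved in several of these classes. They summed to 6264 and 4399 CPM under BPTES and 12393 and 8956 CPM under DMSO in monocytes, where 3 of 8 were called lower, with 1 neutrophil marker called lower and 1 endothelial and 1 plasma cell marker higher. In T cells the macrophage markers summed to 64.1 and 78.2 CPM against 137 and 191 CPM. In B cells they summed to 1779 and 731 CPM against 2740 and 9543 CPM, and the second DMSO library, the highest of these, also had the highest Bbc3 and Bax of the 4. The part of these markers in the values of Bbc3 and Bax was not tested. Without the second DMSO library, which leaves only the one at 16.6 CPM, the log2 fold change of Bbc3 in monocytes was 0.68.

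Single pairs elsewhere had an unadjusted p under 0.05 without being called. Sesn2 was higher in principal cells, at 57.2 and 57.7 CPM under BPTES against 38.4 and 36.6 CPM under DMSO, with tight replicates (log2 0.62, SE 0.16, adjusted p = 0.179 by edgeR). That is opposite in sign to its value in the proximal tubule and dendritic cells, and the difference was not tested. Trp53inp1 was higher in B cells, at 64.0 and 57.9 CPM against 43.0 and 42.4 CPM (log2 0.52, adjusted p = 0.163 by edgeR). It was also higher in innate lymphoid cells (log2 0.59) and monocytes (log2 0.39), both without overlap. Ccng1 in the thick ascending limb stood at 82.4 and 77.9 CPM against 55.0 and 60.5 CPM (log2 0.47, adjusted p = 0.46 by edgeR). Zmat3 in endothelium stood at 9.44 and 9.14 CPM against 14.3 and 11.2 CPM (log2 -0.44, adjusted p = 0.35 by edgeR). Mdm2 in neutrophils was set apart by 1 library, with 87.4 and 94.2 CPM under BPTES and 95.6 and 301 CPM under DMSO (log2 -1.13, adjusted p = 0.56 by edgeR). Without the first DMSO library, which leaves only the one at 301 CPM, that value was -1.75, and without the second it was -0.075.

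Summing all classes of a compartment gave a coarser view. In the CD45-negative sum edgeR called 0% of 18200 genes and so no member, with 2287 genes at an unadjusted p under 0.05 and 496 called by DESeq2. Phlda3 stood at 4.37 and 3.65 CPM under BPTES against 7.93 and 10.8 CPM under DMSO there (log2 -1.22, adjusted p = 0.38 by edgeR). DESeq2 called Phlda3, Bbc3 and Eda2r. The sum includes fibroblasts, whose Phlda3 level was 72.0 and 109 CPM under BPTES and which numbered 12, 16, 34 and 182 cells in the first and second BPTES and DMSO libraries.

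In the CD45-positive sum 2 of 10 members were called, against 6.04% of 17242 genes. Bax stood at 80.6 and 77.4 CPM under BPTES and 97.2 and 100.4 CPM under DMSO (log2 -0.32, SE 0.048, adjusted p = 0.040 by edgeR). Bbc3 stood at 18.4 and 17.9 CPM against 13.1 and 14.2 CPM (log2 0.41, SE 0.072, adjusted p = 0.048 by edgeR). Both genes were without overlap, and both calls were lost when any 1 of the 4 libraries was left out. The sum includes the macrophages, whose values entered the choice of members, so the Bbc3 call is not independent support. Macrophages numbered 881 and 764 cells under BPTES and 1104 and 1056 under DMSO, while plasma cells were more numerous under BPTES. The part of cell numbers in the Bax and Bbc3 values was not tested. Trp53inp1 stood at 150 and 124 CPM against 52.6 and 76.1 CPM (log2 1.09, adjusted p = 0.065 by edgeR). Plasma cells gave 7177 and 4012 of its 10836 and 7453 UMIs under BPTES and 928 and 1553 of 4407 and 5964 under DMSO, and they numbered 226 and 176 cells under BPTES and 30 and 27 under DMSO. Within the classes tested, Trp53inp1 was not called.

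The level of each member across classes is a description, since the classes were built from the same cells, and the order covers the 12 tested classes only. Pmaip1 was highest in dendritic cells, at 377 ± 27 CPM (SD, n = 4 libraries), followed by monocytes at 139 ± 3.3 CPM, and the ranges over libraries did not overlap. Trp53inp1 was highest in T cells (170 ± 27 CPM), above B cells (51.8 ± 11 CPM) without overlap. Among the tested classes Phlda3 was highest in endothelium (13.4 ± 2.0 CPM), above monocytes (5.41 ± 2.1 CPM) without overlap, and the classes from rank 2 to 12 each overlapped their neighbours.

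Ccng1 was highest in the proximal tubule (124 ± 26 CPM) and intercalated cells (119 ± 19 CPM), which overlapped each other and lay above the thick ascending limb (68.9 ± 13 CPM). Sesn2 was highest in neutrophils (71.7 ± 18 CPM), which overlapped principal cells (47.5 ± 12 CPM), and these lay above the proximal tubule (23.2 ± 4.5 CPM). Mdm2 was highest in neutrophils, where it ranged from 87.4 to 301 CPM, and lowest in the proximal tubule (39.2 ± 1.9 CPM). Bax ran from 119 ± 17 CPM in monocytes to 36.8 ± 6.5 CPM in the thick ascending limb, with every neighbour in that order overlapping. Bbc3 ran from 23.2 ± 4.8 CPM in monocytes through macrophages (20.6 ± 3.7 CPM) and dendritic cells (16.2 ± 4.1 CPM) to the proximal tubule at 1.47 ± 0.80 CPM.

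Zmat3 ran from 16.4 ± 1.3 CPM in principal cells to 2.47 ± 1.2 CPM in neutrophils, where the ranges of neighbours overlapped except between dendritic cells and neutrophils. Eda2r was highest in endothelium (3.77 ± 0.76 CPM) and gave 0 UMIs in B cells and innate lymphoid cells, which allows up to 0.198 and 0.584 CPM (3 counts over all libraries). Some classes with too few cells for a test stood higher. Fibroblasts had 72.0 and 109 CPM of Phlda3 under BPTES and 115 and 93.9 CPM under DMSO, and a mean of 6.56 CPM of Eda2r over the 4 libraries. The distal convoluted tubule had a mean of 21.9 CPM of Zmat3 and fibroblasts one of 16.9 CPM. Also among these classes, plasma cells had 626 and 423 CPM of Trp53inp1 under BPTES and 861 and 604 CPM under DMSO.

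**Figure D4:**
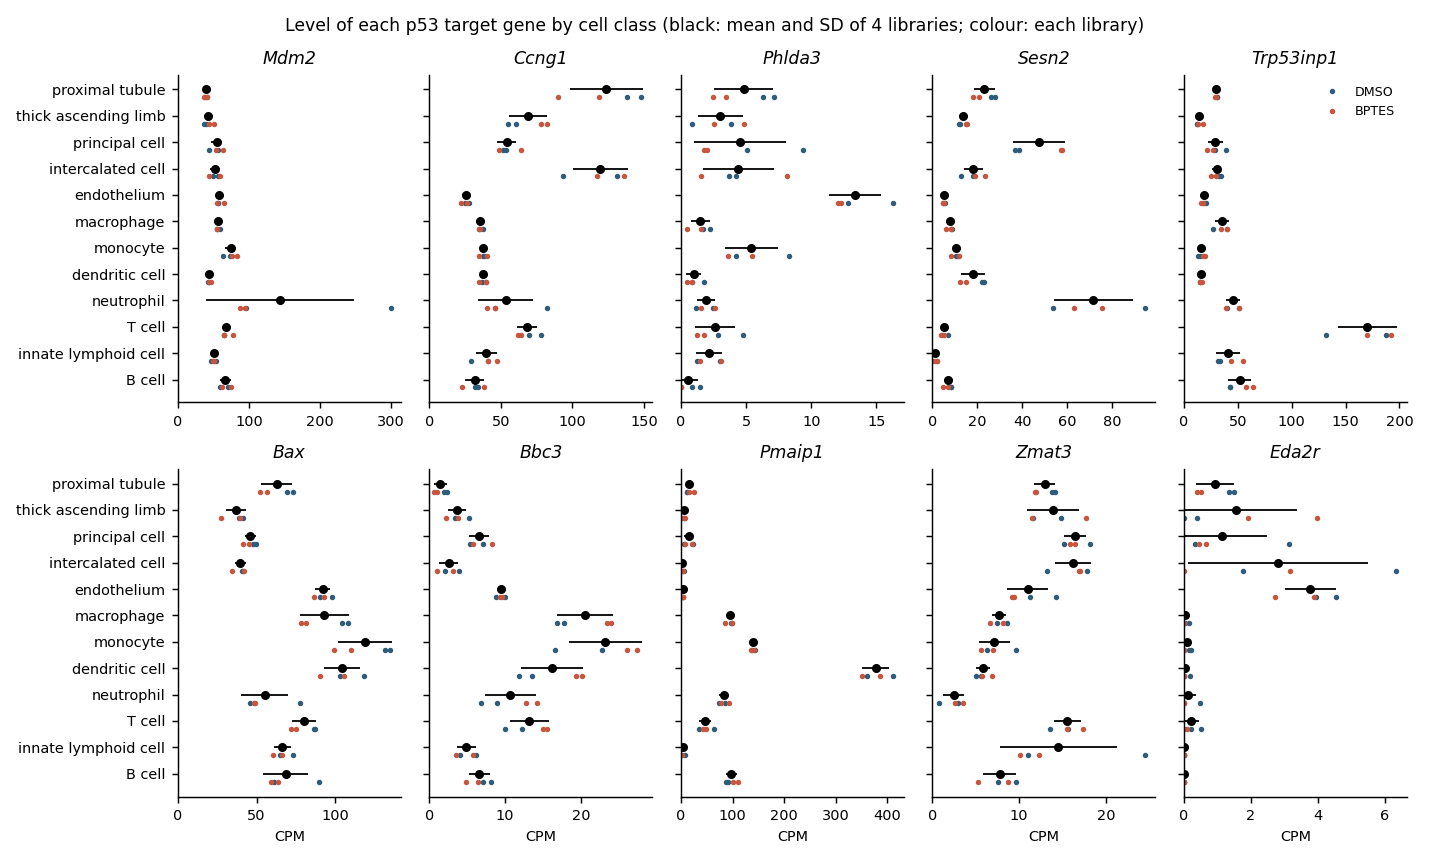
CPM (x axis) of each p53 target gene in each tested cell class (y axis), black points and bars for mean and SD of the 4 libraries and coloured points for each library (blue DMSO, red BPTES). Pmaip1 stands out in dendritic cells, Trp53inp1 in T cells and Phlda3 in endothelium, and 1 DMSO library stands out for Mdm2 in neutrophils.

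For each member the gene with the most similar log2 level over the 12 classes was found by Pearson's r among about 8760 genes, as a description over classes that share libraries. Bbc3 was most like Bak1 (r = 0.96), which encodes another pore-forming Bcl-2 family protein. Pmaip1 was most like Cd86 (0.91), Phlda3 like Tgfbr3 (0.92), Eda2r like Dab2ip (0.95) and Zmat3 like Spsb3 (0.98). Mdm2 was most like Ypel3 (0.95), Ccng1 like Mien1 (0.92), Bax like Nagpa (0.92), Trp53inp1 like Ube2s (0.90) and Sesn2 like Tlcd2 (0.89).

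Of 17 regulators of p53 (kinases, ubiquitin ligases, acetyltransferases and p53 itself), 16 were tested in the proximal tubule and edgeR called none within any of the 12 classes. In the proximal tubule 6 of them had an unadjusted p under 0.05, against 21.3% of all genes (1922 higher and 1492 lower). All 6 were higher under BPTES, with Ep300 and Crebbp, a related pair of acetyltransferases, at 0.43 and 0.39 on the log2 scale. These examples, and p53 itself below, were chosen after their values were seen. In the CD45-positive sum 1 of 16 regulators was called, Ep300 (log2 0.26, adjusted p = 0.046 by edgeR), a share near the 6.04% of all genes called there. Trp53 itself stood at 26.6 and 25.4 CPM under BPTES against 29.4 and 27.4 CPM under DMSO (log2 -0.13, adjusted p = 0.41 by edgeR). The groups lay side by side without overlap and the change was not called.

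Of 42 other p53 targets, 40 were tested in the proximal tubule: 2 fell, none rose, 11 had an unadjusted p under 0.05 with lower values and 2 with higher values. Their median log2 fold change was -0.20, beside -0.43 for the 10 members. Those that fell were Cdkn1a, the cyclin-dependent kinase inhibitor p21, with 10.7 and 7.39 CPM under BPTES against 21.6 and 20.04 CPM under DMSO (log2 -1.20, adjusted p = 0.041 by edgeR), and Sfn, which encodes 14-3-3 sigma (log2 -1.48, adjusted p = 0.043). In the same class 0.792% of all genes were called and 21.3% had an unadjusted p under 0.05. In macrophages 40 were tested and 3 fell, against 4.02% of all genes called: Plk2, Dram1 and Siva1, at -0.69, -0.58 and -0.61. The median of the other targets there was -0.17. In dendritic cells Cdkn1a and Dram1 fell (-0.56 and -0.73) among 37 tested, against 2.52% of all genes, and in endothelium Btg2 fell (-0.57) among 38, against 0.807%. Of the 10 dissociation genes 6 fell in endothelium, with a median of -0.66, and their part in the value of Btg2 was not tested. In the thick ascending limb 5 of these 10 genes fell, with a median of -1.32. Of 3 tubular injury genes tested there 2 fell, with a median of -2.44. The part of both lists in the value of Ccng1 there was not tested. In monocytes 1 dissociation gene rose. In the CD45-positive sum 41 other p53 targets were tested, and 1 rose and 3 fell, against 6.04% of all genes called.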

How the data were processed

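Single-cell RNA sequencing counts from 4 kidney libraries were used, 2 from BPTES-treated and 2 from DMSO-treated mice. The deposited matrices hold whole-number UMI counts per gene and barcode, which the authors made with Cell Ranger 8.0.1 on build mm10, per the submitters' processing notes; their gene annotation is not given in the sources used here. The 10 genes, the other gene lists and the tests were chosen with earlier results of these data known, and the members include genes picked for moving in opposite directions in the proximal tubule and macrophages.

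Of 76278 barcodes, those under 500 UMIs, under 300 genes or over 50% mitochondrial UMIs (33.1% exceeded the last) were removed, as were 3867 doublets ranked by Scrublet scores at a rate of 0.4% per 1000 barcodes, since its own threshold marked 592. Cells were clustered with scanpy 1.11.5 and leidenalg 0.10.2 (3000 variable genes, 40 components, 15 neighbours, resolution 1). Mitochondrial genes and any feature with the symbol tdTomato, a fluorescent reporter, were kept out of the variable genes. Any tdTomato feature was also left out of the class sums. Clusters were named from 161 matched marker genes, and a name means only resemblance. UMIs were summed per library and class and tested with edgeR 4.0.16 (filterByExpr, TMM, robust quasi-likelihood), with Benjamini-Hochberg adjustment over all genes tested. Class differences were fitted as an interaction with the library as a block, and for Bbc3 they are given without p because the choice of members used the same values. The differences of the proximal tubule from dendritic cells and from endothelium were added after the data were seen. The named genes are all 10 members and some of the called genes of other lists. For each member, the gene most like it across classes (mean log2 CPM of at least 3) is named as well. Floors for a count of 0 use 3 counts and cover counting error only.

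On simulated counts with 200 changed genes, the test recovered 84% of 2-fold and 97% of 4-fold changes in the proximal tubule, 81.5% and 96% in macrophages, and 95% of 4-fold interactions. Of the genes called there, 3.45% and 3% were false in the proximal tubule, 6.32% and 8.13% in macrophages, above the 5% aimed at, and 3.06% for interactions. The simulation gave all genes of a class 1 common spread. For interactions it drew the 2 classes separately, without a shared effect of the library. These rates hold for that setting and can differ for genes with another spread. Gene positions are from GENCODE (GRCm38), matched by identifier. Alternatives were RLE scaling, no low-count filter, DESeq2 1.42.0, a replicate block, each library or cluster left out, a mitochondrial limit of 25%, doublets kept, thinning to 1000 UMIs and clustering resolution 2.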

Additional observations from a re-analysis of the deposited data

Results flagged for a closer look

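The fold changes of Bbc3 under BPTES had opposite signs in different cell classes. Bbc3 belongs to a set whose choice took in such opposite movement in the proximal tubule and macrophages of these libraries, so these differences are descriptions and not independent support. The log2 fold change in macrophages (0.45) exceeded that in the proximal tubule (-1.40) by 1.81, and that in dendritic cells (0.64) exceeded it by 1.97. Both BPTES libraries were below both DMSO libraries in the proximal tubule and above them in macrophages and dendritic cells. The 2 comparisons share the same proximal tubule values.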

How the results depend on the processing

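With 1 library left out, 9 of 265 values changed sign. Every member called within a class or a compartment sum lost its call without at least 1 of the libraries. Under the other settings 494 of 561 values kept their direction and their side of the threshold, 18 lost the call, 41 gained one and 8 changed sign. Most of these values belong to pairs that were not called with the main settings. Their staying on the same side of the threshold therefore says little about the calls. The cause was not tested.

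The number of members called is given with the share of all genes called under the same setting in brackets. In the proximal tubule it was 2 (0.792%). It became 7 without the low-count filter (9.21%), 7 with DESeq2 (5.96%), 1 with doublets kept (0.341%) and 3 at resolution 2 (0.967%). It was 3 without cluster 0 or cluster 6 (1.47% and 0.837%, Bbc3 added) and 5 without cluster 5 (4.64%). Without cluster 7 it was 0 (0.269%) and without cluster 8 it was 6 (4.61%). Without cluster 1 the 2 called were Bbc3 and Eda2r (1.07%). In macrophages it was 2 (4.02%) and became 1 with DESeq2 (6.88%) and 0 at the 25% mitochondrial limit (1.02%). It was 1 at resolution 2 (2.15%) and 0 without cluster 2 (0%). In dendritic cells it was 2 (2.52%) and became 1 with DESeq2 (4.33%) and 1 at the 25% limit (2.92%). In monocytes, neutrophils and principal cells it was 0 (0.596%, 0% and 0.0632%) and became 1 without the filter (6.67%, 1.62% and 3.21%). In monocytes it was 1 at the 25% limit (9.26%). In the CD45-negative sum it was 0 (0%) and became 3 with DESeq2 (2.73%). In the CD45-positive sum it was 2 (6.04%) and became 4 with DESeq2 (14.0%), 4 at the 25% limit (11.1%) and 4 with doublets kept (8.93%). Members called for the differences between classes are not counted, since the choice of members used the same values.

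Numbers of members called with 1 library left out are not given here, since 1 group then holds 1 library. The number changed with the library left out in the proximal tubule, macrophages, dendritic cells, monocytes, neutrophils and both compartment sums.

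Samples share only a replicate number. Deviations of same-numbered libraries correlated from -0.154 in B cells to 0.192 in T cells. With the replicate block 6 members were called in the proximal tubule, 0 in macrophages and 0 in the CD45-positive sum. The shares of all genes called there were 20.4%, 0.0209% and 1.26%. Endothelial Bbc3 was -0.00034 with the block. With the numbers crossed, a setting chosen after seeing the data, 2 were called in macrophages and 0 in B cells and neutrophils. The shares of all genes were 8.25%, 6.52% and 0.0622% in the same order.

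Some log2 fold changes that were not called changed sign. Endothelial Bbc3 (0.0057) was -0.0055 without the filter, -0.106 at the 25% limit and -0.107 with doublets kept, and ran from -0.085 to 0.091 with a library left out. Mdm2 in the proximal tubule (-0.026) was 0.026 at the 25% limit, 0.041 without cluster 0 and 0.088 without cluster 5, and ran from -0.097 to 0.049. Bbc3 in B cells (-0.43) was 0.29 with doublets kept. With a library left out, Bax ran from -0.54 to 0.0057 in B cells, -0.26 to 0.025 in intercalated cells and -0.69 to 0.092 in neutrophils, Phlda3 from -0.86 to 0.075 in monocytes, and Bbc3 from -0.117 to 0.40 in principal cells.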
